A study of Mus musculus with 4 samples.

Results

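Elongating spermatids that carry the transition protein transcripts were described in single-cell RNA sequencing (10x Chromium 3′, version 3 chemistry) of dissociated mouse testis. The 4 libraries came from testes of mice fed either a high-fat diet (HFD, 2 libraries) or a normal diet (ND, 2 libraries). The labels name no strain, age, genotype, diet composition or duration for either group. Nor do they tie the libraries to different mice, so p-values over libraries measure the spread between these libraries, which may be technical. The labels state that about 13000 cells were recovered per channel, and the files hold 13561 to 15290 barcodes per library with 143748262 to 154221188 unique molecular identifiers (UMIs). A cell was a member if the mean log-normalized level of Tnp2, Cby3, Tex37 and Cstl1, as a z-score over all kept cells, was above 1 and higher than the scores of the other 6 germ-cell marker sets. The members were thus chosen by measured expression of these genes. By this rule 6249 of 57727 kept cells were elongating spermatids: 1395 and 1454 in the HFD libraries, 1718 and 1682 in the ND libraries, where pairs of values here and below are in the order of replicates 1 and 2. The same sets gave 6133 late round spermatids and 4205 late condensing spermatids, the neighbouring stages on either side. Because expression chose the cells, all levels that set one stage beside another are descriptions without a test, while diet was not used by the rule and was tested.

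Elongation is the step of sperm formation in which the spermatid nucleus is compacted. Histones are exchanged for testis variants and linker histones, then for the transition proteins Tnp1 and Tnp2, and finally for the arginine-rich protamines Prm1 and Prm2. The transcripts of these basic proteins are made while the nucleus is still active, bound by RNA-binding proteins and translated days later, after transcription has ceased. In the same period the acrosome cap is completed, a skirt of microtubules called the manchette shapes the head, and the tail and its mitochondrial sheath are assembled.

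The rule genes were broadly detected in the members. All 4 of them had at least 1 UMI in 73.9% of members, 3 in 23.0% and 2 in 3.04%. Tnp2 had a UMI in 100% of members in each library, with 307 to 371 UMIs per cell at a median depth of 7856 to 9184 UMIs. In pachytene spermatocytes, which should lack the transcript, 98.1% to 99.8% of cells had a Tnp2 UMI, but with 8.95 to 11.1 UMIs per cell at a median depth of 16496 to 21748. With every cell thinned to 1000 UMIs, those shares were at least 99.9% and 40.4% to 50.3%. A Tnp2 UMI was thus present in nearly all cells of both stages, and the higher amount in the members is what the rule selected. Cby3 had a UMI in 76.1% to 80.2% of members, 6.50% to 8.38% of late round spermatids and 5.39% to 5.75% of pachytene spermatocytes. In late condensing spermatids, at a median depth of 3358 to 4153 UMIs, the share was 21.9% to 24.0%. The next-highest score was that of the late condensing set in 88.0% of members, and 81.0% of members also exceeded 1 for that set, while the late round set came next in 4.99%. Just inside the threshold, the 70 cells scoring 1.0 to 1.1 had a median of 2388 UMIs and 11454 Tnp2 CPM (UMIs of a gene per 1000000 UMIs). Just outside it, the 90 cells scoring 0.9 to 1.0 for which this set was also highest had 2192 UMIs and 9619 CPM.

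The members held fewer UMIs, and fewer genes at equal depth, than late round spermatids. Median UMIs per cell were 11595 to 13870 in late round spermatids, 7856 to 9184 in elongating spermatids and 3358 to 4153 in late condensing spermatids over the 4 libraries. At a common depth of 1000 UMIs, an elongating spermatid showed a median of 629 to 643 genes, against 776 to 779 in late round and 577 to 609 in late condensing spermatids. Transcripts of Tnp1, Tnp2, Prm1 and Prm2 together took 13.3% to 14.3% of member UMIs, with the diets overlapping. The same genes took 1.47% to 1.62% in late round spermatids, 12.8% to 14.5% in late condensing spermatids and 0.296% to 0.353% in pachytene spermatocytes. The 50 most abundant genes of each library held 25.2% to 26.3% of member UMIs, against 12.2% to 12.4% in late round and 29.0% to 31.3% in late condensing spermatids. CPM are shares of a fixed total, so in the members all other genes divide a smaller remainder. Doublets called by Scrublet were 3.51% to 6.81% of members, and 6 members carried a barcode that a member of another library also carried.

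Tnp1 and Tnp2, the 2 transition proteins, peaked in the members. Tnp1 stood at 21234 and 19113 CPM in the HFD members and 20397 and 20918 CPM in the ND members, which was 7.33 times the mean of late round spermatids and 2.13 times that of late condensing spermatids. Tnp2, a rule gene, stood at 32680, 31049, 32863 and 32493 CPM in the same order, 8.85 and 2.52 times the means of the neighbours. In every library both genes were higher in the members than in either neighbouring stage. Prm1, the protamine common to mammals, stood at 53383, 47804, 51706 and 51816 CPM, 10.7 times late round spermatids, and its late condensing mean of 44988 CPM was nearly as high. Prm2, a protamine made as a precursor, followed another course. It stood at 36170, 35411, 35995 and 34872 CPM in the members. In late condensing spermatids it was 64642 to 71384 CPM, 1.90 times the member mean. In UMIs per cell, Prm2 was not higher there, with 312 to 341 over the libraries against 349 to 410 in the members. Prm1 had 206 to 219 UMIs per cell there, against 473 to 606 in the members. Prm3, which lies between Prm2 and Tnp2, differed less between stages, with means of 1619 CPM in late round, 2161 in elongating and 2308 in late condensing spermatids. The plot of CPM by stage shows these courses: the transition proteins are lower again in late condensing spermatids, Prm1 is close to its member level there, and Prm2 is higher.

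**Figure D1:**
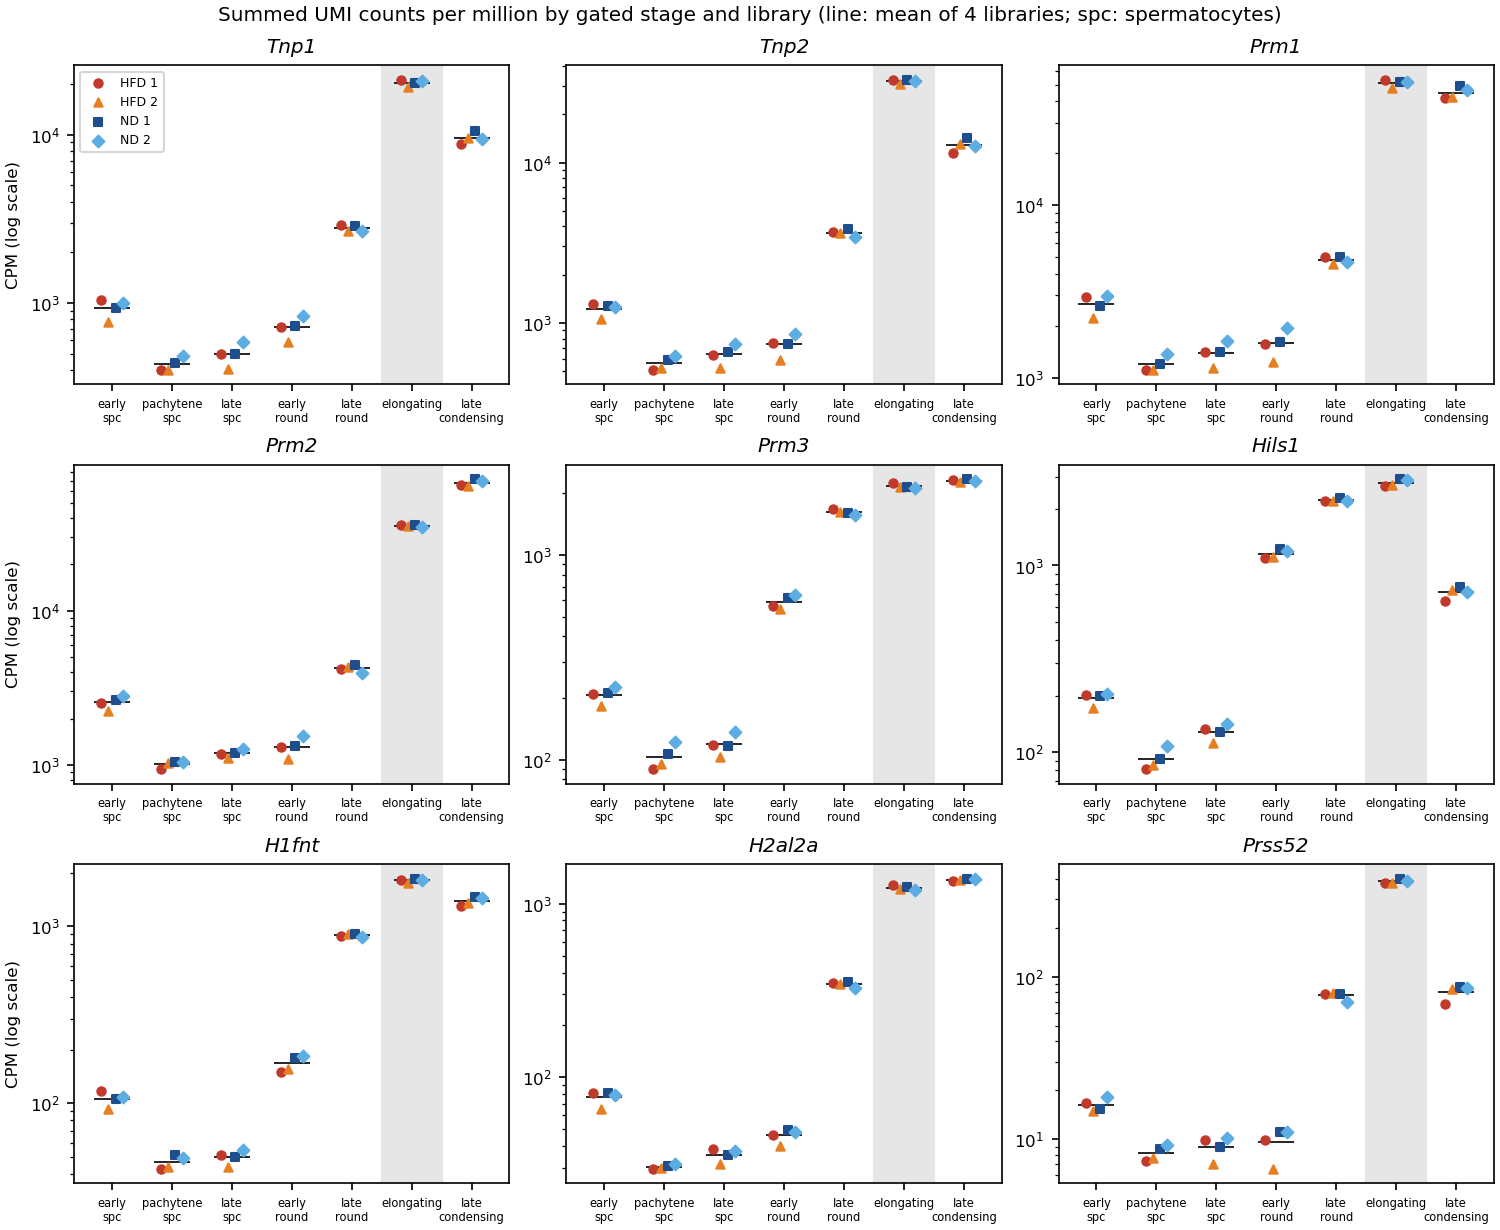
Each point is a library's CPM (log axis, summed UMIs of the cells of that stage) for 9 genes in the 7 gated germ-cell stages, the line is the mean of 4 libraries, and the grey band marks the elongating spermatids. By mean CPM, Tnp1, Tnp2, Hils1, H1fnt and Prss52 are highest in the band, whereas Prm2, Prm3 and H2al2a are highest in late condensing spermatids.

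The upstream sequences of these 4 genes are shown because these are the most abundant transcripts of the program, and because CREM, a cyclic AMP-responsive activator of spermatid genes, is known to act through sites of this kind. They are the 250 bases before each RefSeq start (GRCm38.p6), all on the minus strand: Tnp1 at chr1:73015900-73016149, Tnp2 at chr16:10788656-10788905, Prm1 at chr16:10796824-10797073 and Prm2 at chr16:10792106-10792355. Tnp2, Prm3, Prm2 and Prm1 are neighbours on chromosome 16, whereas Tnp1 lies on chromosome 1. Capitals mark matches to TGACNTCA or its reverse complement TGANGTCA, which are the cyclic AMP response element TGACGTCA with any base allowed at 1 position.
Tnp1: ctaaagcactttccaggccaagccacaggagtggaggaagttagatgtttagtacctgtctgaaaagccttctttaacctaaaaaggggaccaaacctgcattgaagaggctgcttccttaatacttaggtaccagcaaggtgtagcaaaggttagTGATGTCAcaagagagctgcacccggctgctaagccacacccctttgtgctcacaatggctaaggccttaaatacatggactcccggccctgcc
Tnp2: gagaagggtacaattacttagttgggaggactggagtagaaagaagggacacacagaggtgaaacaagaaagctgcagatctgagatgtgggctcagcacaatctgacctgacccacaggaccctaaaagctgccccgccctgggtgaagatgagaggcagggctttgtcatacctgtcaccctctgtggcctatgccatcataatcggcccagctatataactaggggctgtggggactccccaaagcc
Prm1: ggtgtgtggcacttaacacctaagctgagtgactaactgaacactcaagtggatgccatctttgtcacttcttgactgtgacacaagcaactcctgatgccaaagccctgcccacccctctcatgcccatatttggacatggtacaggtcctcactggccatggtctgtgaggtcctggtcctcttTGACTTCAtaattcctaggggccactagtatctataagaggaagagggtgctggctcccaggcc
Prm2: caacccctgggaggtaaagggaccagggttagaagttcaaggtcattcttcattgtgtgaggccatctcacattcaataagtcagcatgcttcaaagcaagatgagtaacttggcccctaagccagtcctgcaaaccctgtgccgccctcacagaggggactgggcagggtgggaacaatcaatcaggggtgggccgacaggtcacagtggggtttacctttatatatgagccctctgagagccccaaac
The match in Tnp1 (TGATGTCA) began 94 bases before the start and that in Prm1 (TGACTTCA) 64 bases before it, while Tnp2 and Prm2 held none in the 300 bases searched, which run from 250 before to 50 after the start. Among the 5 transition protein and protamine genes 3 had a match (Tnp1, Prm1 and Prm3), as did 2708 of all 27025 genes with a RefSeq promoter. Of all 32851 RefSeq promoters, 8.83% did. The full element TGACGTCA, which both patterns include, stood in 1.79% of all promoters and in none of these 5. A match is a run of letters only, and no binding was measured here.

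The other chromatin genes differed in their course over the 3 stages. Hils1, a spermatid linker histone, had 2660 and 2693 CPM in the HFD members and 2900 and 2883 CPM in the ND members. Its mean CPM was 1.25 times that of late round and 3.89 times that of late condensing spermatids. In UMIs per cell, Hils1 was not higher than in late round spermatids, with 26.6 to 30.2 in the members against 30.9 to 35.9. Cdyl, a chromodomain protein, had a similar course in CPM, with means of 348, 526 and 116 in late round, elongating and late condensing spermatids. H1fnt, a linker histone of the apical pole of the nucleus, went from 890 to 1819 CPM and then stood at 1392 CPM. H2al2a, a histone variant tied to transition protein loading, went from 343 to 1232 and 1370 CPM. Its family is multicopy, so the assignment of its reads is uncertain. The replacement histone genes H3f3b and H3f3a went the other way, from 2460 to 493 CPM and from 1423 to 612 CPM between late round and elongating spermatids. Of 11 genes of histone removal and remodelling with at least 20 CPM in a stage, only Cdyl and Nap1l4 were higher in the members than in late round spermatids in all 4 libraries, and 8 were lower in all 4. Brdt, the bromodomain reader of acetylated histones, had 132 CPM in late round and 59.6 CPM in elongating spermatids, and Chd5, a remodelling helicase, 244 and 227 CPM.

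Beside late round spermatids, most genes stood lower in the members. Of 6180 genes with at least 20 CPM in late round, elongating or late condensing spermatids, 23.1% were higher in the members than in late round spermatids in all 4 libraries and 70.8% were lower in all 4, with a median log2 ratio of -0.45 (CPM + 1). Lists of spermatid genes are read beside those values, and higher or lower below means in all 4 libraries. Acrosome and sperm-egg fusion genes were lower in 24 of 25, with a median of -1.34: Spaca1, an acrosomal membrane protein, went from 899 to 226 CPM, Acrv1, a matrix protein of the acrosome, from 609 to 200 CPM, and Spam1, the hyaluronidase PH-20, from 147 to 13.5 CPM. The exception was Spaca9, with 1859, 1846, 1932 and 1885 CPM in HFD 1, HFD 2, ND 1 and ND 2 against 1180 to 1255 in late round spermatids. Sperm ion channels and pumps were lower in 10 of 12, the CatSper calcium channel gene Catsper3 from 235 to 45.5 CPM, while Catsperd (58.5 to 122 CPM) and the sperm sodium pump Atp1a4 (132 to 172 CPM) were higher. Transcription regulators were lower in 11 of 12, among them Crem (563 to 185 CPM) and Sox5 (468 to 111 CPM). The exception was Fhl5, a coactivator of CREM also called ACT, with a mean of 653 CPM in late round, 782 in elongating and 192 in late condensing spermatids.

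Genes of the kinases, tail and head structures were mixed. Testis-specific serine kinases and their partners were higher in 5 of 7: Tssk6, a kinase required for chromatin condensation, went from 342 to 1252 CPM and on to 3115 CPM in late condensing spermatids, and Tssk3 from 230 to 521 and 1054 CPM, while Tssk4 went from 348 to 107 CPM. Outer dense fibre and fibrous sheath genes were higher in 8 of 15, with Gapdhs, the glycolytic enzyme of the sheath, at 1082, 2065 and 4217 CPM and Akap4, its main structural protein, at 592, 959 and 1369 CPM over the 3 stages. Axoneme genes, which build the microtubule core of the tail, were higher in 1 of 20 (Tekt5, 171 to 194 CPM) and lower in 15, such as Tekt2, a tektin, from 964 to 244 CPM. Of 12 mitochondrial sheath genes 4 were higher: Smcp, the sperm mitochondria-associated cysteine-rich protein, went from 2726 to 4188 and 8931 CPM, and Spata18 from 292 to 798 and 1707 CPM. Manchette genes were higher in 3 of 20, namely Hook1 (355 to 578 CPM), the microtubule-binding Map7 (143 to 243 CPM) and Spata20, and lower in 16, with Sun5, a nuclear membrane protein of the head-tail junction, going from 313 to 67.2 CPM. Among energy enzymes 5 of 17 were higher, Gpi1, glucose-6-phosphate isomerase, from 124 to 458 CPM. The RNA storage genes were lower in 13 of 16, including Pabpc1 (1318 to 671 CPM), whereas Ybx2, the main spermatid messenger-binding protein, was 726 and 653 CPM. Of 15 ubiquitin genes 3 were higher, among them Spem1, needed for removal of the cytoplasm, from 143 to 397 CPM.

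**Figure D2:**
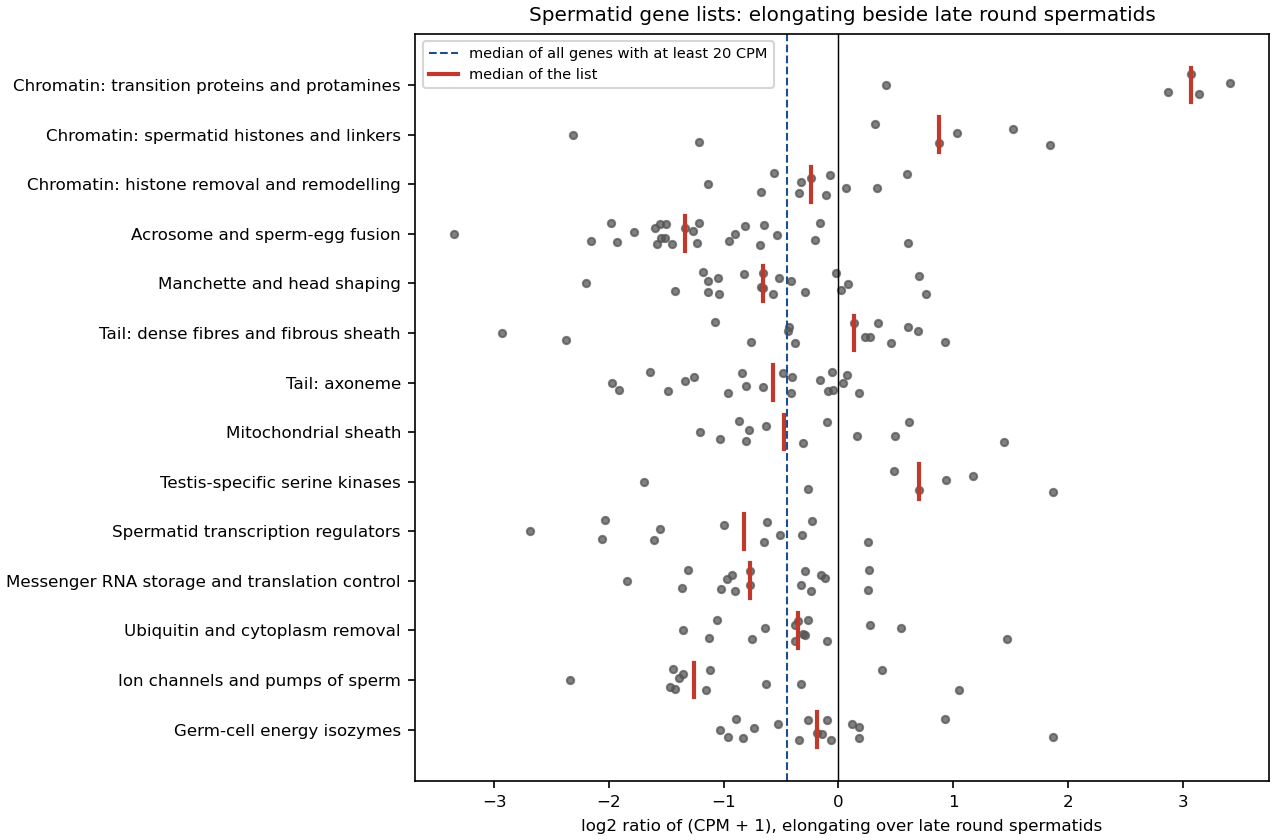
Each point is a gene with at least 20 CPM in 1 of the 3 spermatid stages, placed by its log2 ratio of CPM + 1 in elongating over late round spermatids (mean of 4 libraries). Red bars are list medians and the dashed line the median of all such genes, -0.45; transition proteins and protamines lie farthest right, and acrosome and ion channel genes farthest left by their medians.

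Genes outside the marker sets that were most restricted to the members had at least 100 CPM in each library. Prss52, a testis serine protease, had 376, 376, 401 and 391 CPM in HFD 1, HFD 2, ND 1 and ND 2, 4.78 times the highest of the other 6 gated stages. Its neighbour Prss51 on chromosome 14 (64086234 to 64097678, with Prss52 at 64104286 to 64113755) had 192, 189, 197 and 196 CPM, 4.19 times the next stage. Actrt3, an actin-related protein of the perinuclear theca, had 208 to 234 CPM over the libraries, against means of 56.3 CPM in late round and 45.6 CPM in late condensing spermatids. The other 12 were Faiml, Sh3bp5, 1700016C15Rik, Cntn1, Gm136, 1700025G04Rik, Trp53tg5, Fam71b, Noxred1, Srcin1, Impad1 and Chmp5, at 3.17 to 4.76 times the next stage. Cntn1 encodes the adhesion molecule contactin and Chmp5 a subunit of the ESCRT-III membrane-scission machinery. Among the 11 of these 15 with a RefSeq promoter here, 1 (Trp53tg5) held the TGACNTCA pattern.

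The members were not uniform. They were ordered by the late condensing score minus the late round score and divided into tertiles over all 4 libraries. This order uses the marker sets of the neighbours and does not use the genes described next directly. It is not independent of the rule, because a cell with a high late condensing score was a member only with a still higher rule score. Mean Tnp2, a rule gene, went from 20905 to 34651 and 43113 CPM over the tertiles. Climbs of genes that go with the rule genes are thus a description only. Over the tertiles in order, mean Tnp1 went from 12701 to 21476 and 28380 CPM, Prm1 from 30651 to 54728 and 71563, and Prm2 from 23653 to 37740 and 47423. Spaca1 went the other way, from 497 to 109 and 34.8 CPM, and Acrv1 from 371 to 158 and 44.9 CPM. Hils1 was highest in the middle, at 2647, 3031 and 2682 CPM, and so was Prss52, at 344, 459 and 356 CPM. Each of these orders held in all 4 libraries, except between the first and the third tertile of Hils1 and of Prss52. For Hils1 the first was higher in HFD 1 and HFD 2 (2600 over 2517 and 2622 over 2550 CPM). The third was higher in ND 1 and ND 2 (2820 over 2704 and 2839 over 2660 CPM). This split of Hils1 by diet was seen afterwards and was not tested. For Prss52 the first tertile was higher in HFD 1, and the third in HFD 2, ND 1 and ND 2. Spaca1 and Acrv1, picked after their values were seen, were thus highest on the late round side, and Prm1 and Prm2 on the late condensing side.

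**Figure D3:**
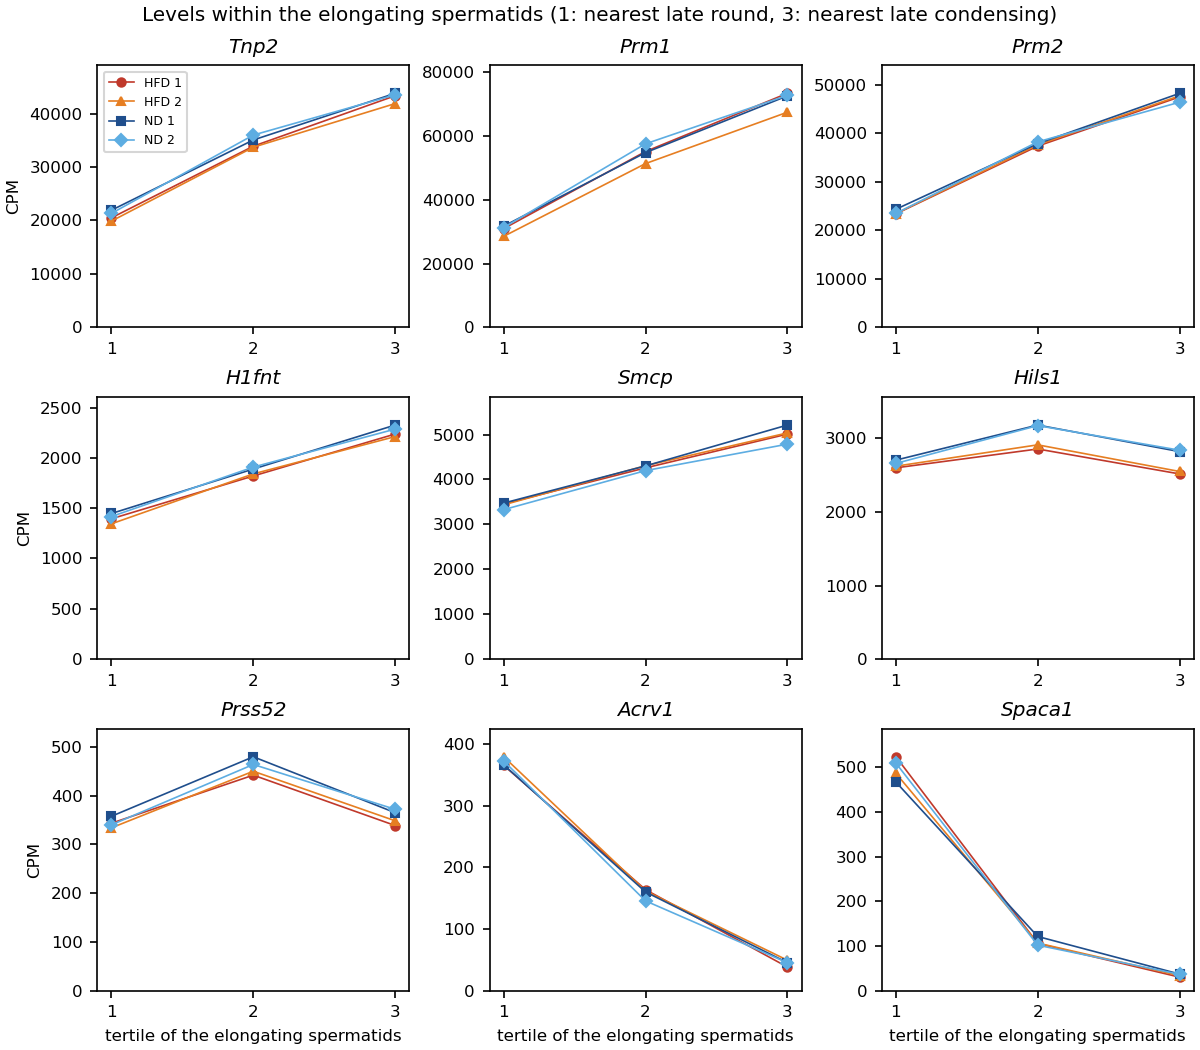
CPM of 9 genes in the 3 tertiles of elongating spermatids, ordered from the late round to the late condensing side, with 1 line per library. Protamine, H1fnt and Smcp lines climb, Spaca1 and Acrv1 lines drop, and Hils1 and Prss52 peak in the middle tertile.

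Diet was first compared for how many members there were. Elongating spermatids made up 10.3% (95% exact Clopper-Pearson interval 9.79% to 10.8%) and 10.1% (9.64% to 10.6%) of the kept HFD cells. In the ND libraries they made up 11.3% (10.8% to 11.8%) and 11.5% (11.0% to 12.1%), and these intervals cover counting error only. The HFD mean was 1.19 percentage points lower (10.2% ± 0.121 against 11.4% ± 0.190, SD, n = 2 each), and the diets did not overlap. The two-sided exact permutation p was 0.333, the smallest that 2 against 2 libraries can give. A lower share in HFD was not particular to the members: late round spermatids made up 9.52% and 9.22% of HFD and 11.7% and 11.9% of ND kept cells. Early round spermatids made up 10.4% and 10.2% of HFD and 12.6% and 12.6% of ND kept cells. Spermatocyte shares ran the other way in the same libraries: late spermatocytes made up 15.9% and 14.6% of HFD and 10.5% and 10.7% of ND kept cells. As a share of the 4 spermatid stages alone, elongating spermatids were 27.6% and 27.7% in HFD and 26.0% and 26.7% in ND, the opposite direction, so the direction depended on the denominator. The third tertile held 36.6% and 34.9% of the HFD members, against 32.9% and 29.7% in ND (a mean difference of 4.38 percentage points, exact permutation p = 0.333). The median of the score difference that ordered the cells was 2.15 and 2.08 in HFD and 2.08 and 2.01 in ND, so HFD 2 and ND 1 lay at nearly the same position. Median UMIs per member were 9184 and 7856 in HFD and 8026 and 8310 in ND, and the diets overlapped.

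**Figure D4:**
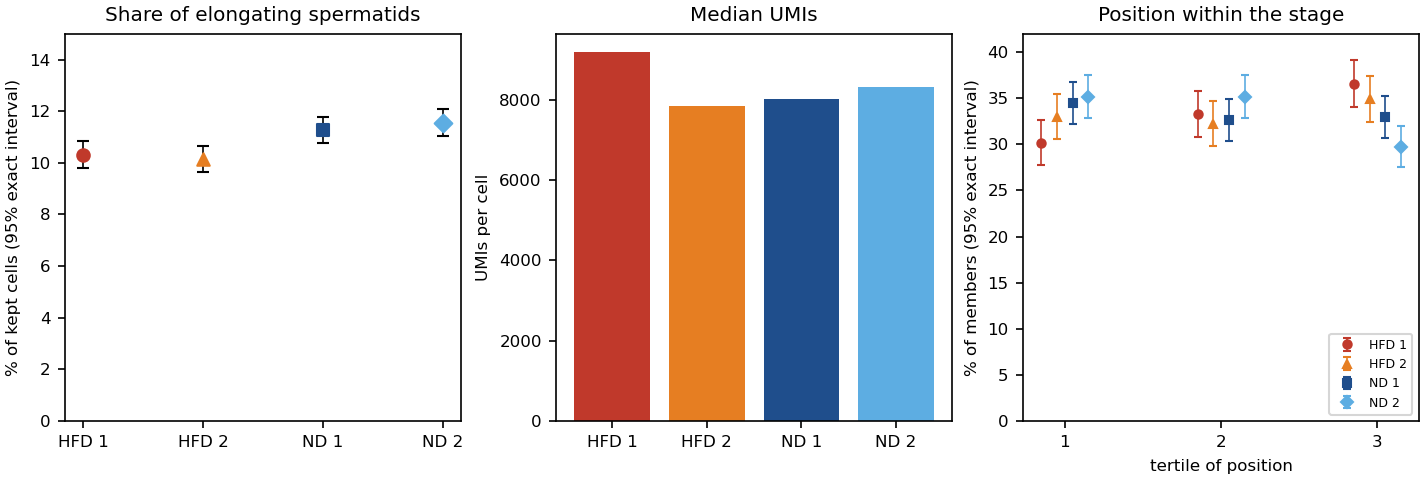
Left, elongating spermatids as a percent of kept cells per library with 95% exact intervals; middle, their median UMIs; right, the percent of members in each tertile of position. Both HFD libraries lie below both ND libraries in the left panel and above them in the third tertile.

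Across genes, diet differences were called for a small share of those tested. edgeR tested 16022 genes on UMIs summed per library and called 205 (1.28%) at a Benjamini-Hochberg adjusted p under 0.05: 129 (0.805%) higher and 76 (0.474%) lower in HFD, with median log2 ratios of 0.33 and -0.38. Of the 205, 28 differed by more than 1 in log2 (3 higher and 25 lower), all with a mean of at most 14.8 CPM and so below the level required of named genes. The largest fitted ratios were 1.94, with 53 UMIs in HFD and 15 in ND, and -3.71, with 2 UMIs in HFD and 32 in ND, where counts this low leave the size imprecise. Both HFD libraries stood above both ND libraries in 22.9% of tested genes and below them in 22.4%. The count rested on both HFD libraries, since 0 genes were called without HFD 1 or without HFD 2 (1537 and 888 at an unadjusted p under 0.05), against 482 without ND 1 and 172 without ND 2. The count also depended on the method: DESeq2 called 80, edgeR without a filter on low counts 0 (2097 at an unadjusted p under 0.05), and 18 of the 205 passed edgeR's test for a change beyond 1.2-fold. It was 466 with the replicate block, 443 with a score above 1.5, 367 with doublets left out, 122 with a 10% mitochondrial limit and 78 with the gate applied to thinned cells.

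No diet difference was called for the transition protein and protamine genes outside the rule. In edgeR's scaled CPM, Tnp1 was 21398 and 18750 in HFD against 20587 and 21118 in ND (log2 difference -0.05, SE 0.046; adjusted p 0.632 by edgeR with Benjamini-Hochberg), and the libraries overlapped. Prm1, Prm2 and Prm3 overlapped too, with log2 ratios of -0.05, -0.01 and 0.02, and 0 of these 4 genes were called beside 1.28% of all genes. Tnp1, Prm1 and Prm2 climbed with the rule gene Tnp2 over the tertiles, and members of either diet were selected for a high rule score. The comparison can thus not show whether diet changes these levels in spermatids at large. The rule genes are given as a description only, since every member had to score high on them in either diet: Tnp2 was 32933 and 30460 in HFD and 33169 and 32804 in ND, and the libraries of Cby3, Tex37 and Cstl1 also overlapped. Hils1 was 2681 and 2642 in HFD against 2927 and 2911 in ND, without overlap, a log2 difference of -0.13 (SE 0.04) that missed the threshold (adjusted p 0.085 by edgeR with Benjamini-Hochberg). It was called at -0.16 to -0.13 by 5 of 14 alternatives: DESeq2, the replicate block, the stricter score, removal of doublets and equal numbers per tertile. No gene was called among the lists of spermatid histones (9 tested), histone removal (13), acrosome (26), manchette (22), mitochondrial sheath (12), serine kinases (7), transcription regulators (12) and ion channels (15), whose median log2 ratios lay between -0.07 and 0.05. Without a call, both HFD libraries stood below both ND libraries in 10 of the 22 manchette genes, 10 of the 26 acrosome genes and 3 of the 7 kinase genes, where 22.4% of all genes did. Dense fibre and sheath genes had 1 of 15 called, Odf3, an outer dense fibre protein (363 and 359 in HFD, 403 and 411 in ND, -0.17 in log2), and 7 of the 15 were lower in both HFD libraries than in both ND libraries.

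Of 20 axoneme genes, 3 were called, all higher in HFD, where 0.805% of all tested genes were called higher. Rsph1, a radial spoke protein, was 763 and 817 in HFD and 660 and 657 in ND, which differ by 0.26 in log2 (SE 0.04; adjusted p 0.00309 by edgeR with Benjamini-Hochberg). Ccdc39, an assembly factor of inner dynein arms, and Dnah8, an outer-arm heavy chain, rose by 0.34 and 0.23. In 13 of the 20 both HFD libraries stood above both ND libraries (22.9% of all genes did), in 3 the reverse held, and the median was 0.11 against 0.00 over all tested genes. Pabpc6, a testis poly(A)-binding protein (82 and 92 against 68 and 63), the glucose transporter gene Slc2a3 and the cytochrome oxidase subunit gene Cox7b2 rose as well, by 0.42, 0.29 and 0.20. They were the only genes called among 17 RNA storage and 17 energy genes tested. In the energy list, both HFD libraries stood above both ND libraries in 6 genes and below them in 6, with a median of 0.008. The level of each of the 6 called genes of this paragraph was higher in spermatocytes than in the members: Rsph1 had 4285 CPM in pachytene spermatocytes, 5.92 times its member level, and Slc2a3 1104 CPM, 8.77 times.

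The same held for most genes that rose. Of the 129, 117 (90.7%) had their highest level in a spermatocyte stage, as did 46.5% of all tested genes. The members were the highest stage for 5 (3.88%), against 11.9% of all tested genes. The spermatocyte marker Sycp3 was itself called higher, at 61.9 and 66.1 in HFD against 53.7 and 52.4 in ND. It was the only 1 called of 5 spermatocyte markers tested, where 0.805% of all tested genes were called higher. In 3 of the 5 both HFD libraries stood above both ND libraries, as in 22.9% of all tested genes, and 2 overlapped. The summed CPM of the 6 spermatocyte markers in the members was 169 and 186 in HFD and 157 and 158 in ND, with none of the 6 at 0, and spermatocyte shares were higher in HFD, as given above. The part of spermatocyte RNA in these differences was not tested. Among the named genes, 3110070M22Rik (chromosome 13, 119487261 to 119488383) rose most, from 83.5 and 75.3 in ND to 115 and 111 in HFD, by 0.51 in log2 (SE 0.06; adjusted p 5.82e-05 by edgeR with Benjamini-Hochberg). Over all kept cells its log2 difference was 0.60. Its highest level, in late spermatocytes, was 2.76 times its member level. Rnf6, a ubiquitin ligase, was 21.1 and 27.1 in HFD against 18.1 and 16.2 in ND (0.49), and Smg9, a factor of nonsense-mediated decay, 39.1 and 43.7 against 30.3 and 31.5 (0.42). Pbk, a mitotic kinase, and Gmnn, the replication-licensing inhibitor geminin, rose by 0.41 and 0.40. Cdk1 is given as a description only, with a log2 ratio of 0.39, since the score of its late spermatocyte set helped to decide membership; so did those of Aurka, Mybl1 and Pou5f2, the other 3 marker-set genes among the 129, which leave 125. Arl6ip1, Entpd6, the dynein intermediate chain Dync1i2, the histone methylation cofactor Mllt10 and 2700049A03Rik rose by 0.39 to 0.40. All these named genes except 3110070M22Rik were at least 3.61 times higher in a spermatocyte stage than in the members.

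**Figure D5:**
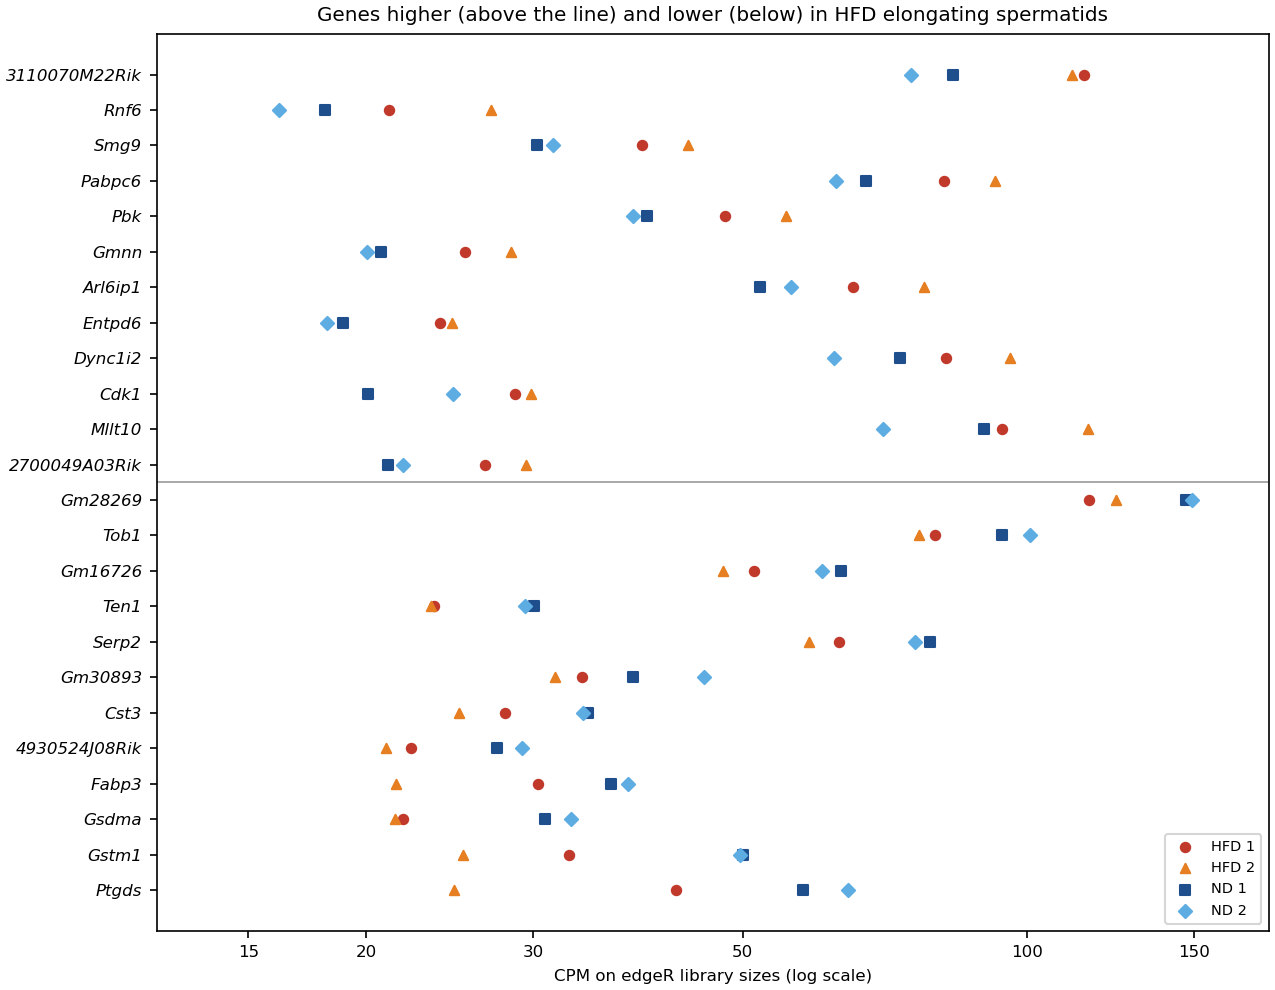
CPM on edgeR library sizes (log axis) of the 24 named genes in the elongating spermatids of each library, 12 higher in HFD above the line (with Cdk1, a gene used by the rule) and 12 lower below it. Circles and triangles (HFD) lie on 1 side of squares and diamonds (ND) in each row, by construction of the naming rule.

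Among genes that fell, a first group holds markers of Leydig cells, the steroid-making cells between the tubules. Of the 76, 37 (48.7%) had their highest level in cells that no germ-cell set claimed, against 11.7% of all tested genes. Of 6 Leydig markers tested, 4 were called lower, as were 0.474% of all tested genes: Star, the cholesterol importer (2.61 and 1.84 in HFD, 6.33 and 6.05 in ND), Cyp17a1 (7.90 and 6.96 against 17.0 and 17.3), Hsd3b6 and Cyp11a1, with log2 ratios of -1.46, -1.21, -1.13 and -0.76. The summed unscaled CPM of all 6 was 33.7 and 24.0 in HFD and 60.9 and 51.5 in ND members, against 2890 CPM in the unclaimed cells, and none was at 0. With doublets left out, the 4 log2 ratios became 0.092, 0.18, 0.083 and 0.37 and none was called. Doublets held 65.7% to 73.6% of the UMIs of these 4 genes in ND 1 members and 61.8% to 70.0% in ND 2, but 14.8% to 48.0% in HFD 2 and at most 8.11% in HFD 1, where Scrublet called the fewest doublets (3.11% of kept cells). Ptgds, prostaglandin D synthase, Gstm1, a glutathione transferase, Fabp3, a fatty acid-binding protein, and Cst3, cystatin C, belonged to this pattern: they fell by 0.86, 0.78, 0.51 and 0.36, were 27.2 to 59.4 times higher in the unclaimed cells, and stood at 0.42, 0.21, 0.87 and 0.087 without doublets. Without doublets, HFD 1 was the highest library for each of these 4 genes and the 4 Leydig markers. HFD 2 was then below both ND libraries for Ptgds, Gstm1, Star and Hsd3b6. It lay between them for Cst3 and Cyp17a1 and above both for Fabp3 and Cyp11a1. Ptgds, for example, had 42.1 and 20.4 unscaled CPM in HFD and 21.4 and 24.9 in ND. No gene was called among the markers of the remaining cell types. Their summed CPM over the 4 libraries ran from 47.4 to 55.2 for Sertoli cells, 22.9 to 27.5 for macrophages, 39.4 to 44.8 for lymphocytes, 17.3 to 22.5 for spermatogonia and 1051 to 1112 for round spermatids, with the diets overlapping. Fibroblast and myoid markers summed to 4.87 and 4.38 in HFD and 5.33 and 5.34 in ND, endothelial markers to 13.0 and 11.6 against 11.3 and 10.5, and erythrocyte markers to at most 0.253.

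A second group of lower genes had its highest level in the elongating or late round spermatids. Of the 76, 18 (23.7%) were highest in the members, against 11.9% of all tested genes. Another 21 (27.6%) were highest in early or late round spermatids, close to the 25.0% of all tested genes. Gsdma, gasdermin A, a member of the pore-forming gasdermins (chromosome 11, 98664351 to 98677708), was 21.8 and 21.4 in HFD and 30.9 and 32.9 in ND, which differ by -0.56 in log2 (SE 0.08; adjusted p 0.00119 by edgeR with Benjamini-Hochberg). Its level was highest in the members among all stages, doublets held 4.08% to 7.01% of its UMIs, and its log2 difference lay between -0.63 and -0.51 over the alternatives, where 9 of the 13 alternatives that gave an adjusted p called it. Tob1, an antiproliferative adaptor of messenger deadenylation, was 79.8 and 76.8 against 93.9 and 101 (-0.31), and Gm28269 116 and 124 against 147 and 149 (-0.30), both also highest in the members. Serp2, a translocon-associated stress protein, and Ten1, a subunit of the telomere-capping CST complex, fell by 0.34 each, and 4930524J08Rik by 0.39. Gm30893 and Gm16726, annotated as antisense genes, fell by 0.35 and 0.32, and since the counting is not stated to use strand their reads are uncertain. Of the 15 genes most restricted to the members, Chmp5 (141 and 140 against 158 and 165) and Fam71b (425 and 433 against 486 and 487) were called lower, by 0.20 and 0.18, where 0.474% of all tested genes were called lower.

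The diet effect in elongating spermatids was then compared with that in the neighbouring stages by the stage-by-diet term of edgeR, with library as a block. It differed from late round spermatids for 60 of 18234 genes (0.329%; 38 higher and 22 lower in the members) and from late condensing spermatids for 37 (0.203%; 30 higher and 7 lower), at a Benjamini-Hochberg adjusted p under 0.05. Of the 37, 4 belong to the late condensing marker set that helped to choose the cells (Car2, Gm498, Paqr5 and Spem2), which leaves 33, and none of the 60 belongs to a marker set. With DESeq2's size factors in edgeR the split was 12 higher of 46 and 5 higher of 12, and without the library block 0 genes passed in either (1093 and 1090 at an unadjusted p under 0.05). Counts without 1 library ran from 5 (without HFD 2) to 125 (without HFD 1) against late round and from 5 (without ND 2) to 101 (without HFD 2) against late condensing spermatids. Rnf6 and Smg9 were among the genes that differed from late round spermatids, where their own log2 ratios were -0.01 and 0.00.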

How the data were processed

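Single-cell suspensions of testis were run on the 10x Chromium 3′ version 3 platform, and the deposited files are matrices of raw UMI counts per gene and barcode, per the file headers written by software version 3.0.2. The submitters' processing notes name the mm10 build; the aligner, its settings, the annotation and any removal of doublets are not given in the sources used here. All 55450 gene identifiers matched GENCODE M21. Fewer than 200 genes or over 20% mitochondrial UMIs excluded 13 to 42 barcodes per library. Each of 7 germ-cell marker sets was scored as the mean log of 1 plus the counts per 10000, z-scored over kept cells, and a cell was given the highest set above 1. The members and gene lists were chosen with earlier results of these data known.

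UMIs were summed per library and stage. Diet was tested with edgeR 4.0.16 (quasi-likelihood, filterByExpr, TMM, R 4.3.3) with Benjamini-Hochberg adjustment over all tested genes and a threshold of 0.05, and checked on simulated data. The changed genes of the simulation were drawn only from those with at least 20 CPM in the members. The median gene tested for diet had a mean of 6.63 CPM, so recovery at such levels was not simulated. For diet (16011 genes, dispersion set to 0.002), 86.6% of genes changed 1.3-fold and 67 of 67 changed 1.5-fold were called, with 8 false calls. For the stage-by-diet term (18330 genes), 37.3% (late round) and 23.9% (late condensing) were called at 1.3-fold and 91.0% and 64.2% at 1.5-fold, with 3 and 10 false calls. Scaled CPM beside an edgeR test use its library sizes; all other CPM use plain totals. Single values used exact permutation tests. The stage-by-diet term was fitted over late round, elongating and late condensing spermatids with library as a block. Scrublet (scanpy 1.11.5, expected rate 0.1) called doublets, which stayed in unless stated. The matching replicate numbers of HFD and ND were not treated as pairs in the main test. The replicate differences of the diets were nearly uncorrelated (r = 0.04 across 4806 genes), which cannot exclude a pairing or a shared batch.

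Named were up to 12 genes per direction with an adjusted p under 0.05, libraries of the diets not overlapping and a mean of at least 20 CPM, by size of change. For the stage-by-diet term up to 5 per direction were named. The 15 genes outside the marker sets with at least 100 CPM in every library and the highest ratio of members to the next gated stage were named, as were called and abundant genes of 14 pathway and 11 marker lists. Other genes of those lists were chosen after their values were seen. Alternatives were RLE factors, DESeq2 1.42.0, no filter, each library left out, a replicate block, doublets left out, a score above 1.5, a gate on cells thinned to 1000 UMIs, a 10% mitochondrial limit, equal numbers per tertile and a 1.2-fold threshold. UMIs of the members summed to 14375565 to 16900373 per library. 1 gene's diet result is not reported here.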

Additional observations from a re-analysis of the deposited data

Results flagged for a closer look

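The effect of diet (log2, HFD over ND) differed between elongating spermatids and a neighbouring stage for the following genes, by the stage-by-diet term of edgeR with Benjamini-Hochberg adjustment over 18234 genes. None of them was called without library as a block, and no cause was tested. Within the elongating spermatids, the diet effect was itself called only for Rnf6, Smg9, Gm16726, Sh3kbp1, Cks2 and Gstm1 of the genes below. Within late condensing spermatids it was called for Tex101, Defb36, Cst12 and Defb19, the last being compared with both neighbours. Within late round spermatids it was called for none of the genes compared with that stage.

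Against late round spermatids, the effect was higher in the elongating spermatids for 5 named genes. Pcgf6, a Polycomb group protein of germ cells, differed by 0.54 (0.36 against -0.17) and Rnf6 by 0.51 (0.49 against -0.01). Smg9 differed by 0.43 (0.42 against 0.00) and the phosphatase gene Dusp19 by 0.38 (0.28 against -0.10). These 4 are highest in spermatocytes, at 4.95 to 11.9 times their level in the elongating spermatids. Dusp19 lost its call in every alternative run, where its difference lay between 0.32 and 0.45. Within the elongating spermatids, the diet effects of Pcgf6 and Dusp19 were not called. Defb19, a defensin with close relatives, differed by 0.50 (0.10 against -0.39), and its level was 6.76 times higher in cells claimed by no germ-cell set.

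The effect was lower for Gm136 by -0.37 (-0.11 against 0.26), for the junction gene Cgnl1 by -0.37 (-0.17 against 0.21), and for Gm16726, annotated as antisense, by -0.36 (-0.32 against 0.05). It was also lower for the nuclear RNA Malat1 by -0.29 (-0.13 against 0.17) and for the adaptor gene Sh3kbp1 by -0.27 (-0.24 against 0.04). Malat1 was 20.2 times higher in cells claimed by no germ-cell set than in the elongating spermatids. Cgnl1 and Gm16726 were highest in late round spermatids, at 1.54 and 1.19 times, and Gm136 and Sh3kbp1 in the elongating spermatids themselves. Gm136 is among the genes most restricted to elongating spermatids, and its own diet effect there was not called.

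Against late condensing spermatids, the effect was higher for Tex101, a surface protein of germ cells, by 0.66 (-0.02 against -0.66) and for the cell-cycle gene Cks2 by 0.40 (0.25 against -0.12). Apoe differed by 0.36 and Klk1b8, a kallikrein with close copies, by 0.27. Tex101 was 22.8 times higher in early spermatocytes than in the elongating spermatids, Cks2 9.32 times in pachytene spermatocytes, and Apoe 7.16 times in cells claimed by no germ-cell set, while Klk1b8 was highest in the elongating spermatids. The effect was lower for Gstm1 by -0.93 (-0.78 against 0.18), Defb36 by -0.77 (-0.09 against 0.70), Cst12 by -0.77 (-0.02 against 0.77), Defb19 by -0.45 (0.10 against 0.57) and Tmsb4x by -0.37 (-0.19 against 0.20). These last 5 have their highest level in cells claimed by no germ-cell set, at 55.6, 1.58, 1.75, 6.76 and 4.40 times their level in the elongating spermatids, and the share of their UMIs from such cells was not tested. For Gstm1, doublets held 63.8% and 56.5% of its UMIs in the ND members, against 5.84% and 39.1% in HFD. With doublets left out, its diet effect in the members turned from -0.78 to 0.21 and was not called, and the difference between stages was not recomputed without them. Gstm1 then had 32.6 and 17.5 unscaled CPM in HFD 1 and HFD 2 and 19.5 and 23.5 in ND 1 and ND 2, so the positive sign rested on HFD 1.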

How the results depend on the processing

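Limits: with 2 libraries per diet an exact test cannot go below 0.333, and leaving out an HFD or ND library assumes that the lone library varies like the pair. Against 205 genes called for diet, DESeq2 called 80, no filter 0 (2097 at an unadjusted p under 0.05), the replicate block 466, doublets left out 367, the score above 1.5 443, the thinned gate 78, the 10% mitochondrial limit 122 and the 1.2-fold threshold 18; leaving out a library gave 0 to 482. The stage-by-diet counts of 60 (late round) and 37 (late condensing) became 0 and 0 without the library block; for late condensing, no filter gave 88 and RLE factors 12. Leaving out a library gave 5 to 125 and 5 to 101. The share difference of -1.19 points ran from -1.32 to -1.05 without a library, became 1.31 points among spermatids, and in edgeR's test of cell counts was -0.16 in log2 (adjusted p 0.0107 with Benjamini-Hochberg). The value among spermatids and the edgeR test of counts were added after seeing the data. In that test late round spermatids were at -0.33 in log2. Every group of kept cells except late condensing spermatids had an adjusted p under 0.05 in it. The difference in median UMIs ran from -312 to 1016 without a library. Without doublets, log2 differences turned to 0.42 (Ptgds), 0.21 (Gstm1), 0.87 (Fabp3), 0.087 (Cst3), 0.092 (Star), 0.18 (Cyp17a1), 0.083 (Hsd3b6) and 0.37 (Cyp11a1). For each of these genes HFD 1 was then the highest library. HFD 2 was below both ND libraries for Ptgds, Gstm1, Star and Hsd3b6 only. Signs also turned for uncalled genes near 0, of which Cby3 and Cstl1 are rule genes: without a library Tnp1 ran from -0.16 to 0.033, Prm1 from -0.16 to 0.038, Prm2 from -0.044 to 0.023, Prm3 from -0.038 to 0.064, Cby3 from -0.040 to 0.036 and Cstl1 from -0.055 to 0.0083. Prm3 was -0.0072 in the thinned gate and -0.029 with equal tertiles, and Cby3 0.0015 with no filter. Over 47 genes and 639 values for diet, 405 kept direction and call, 209 lost the call, 6 gained one and 19 reversed; 19 DESeq2 values had no adjusted p. Over 20 genes and 140 values of the stage-by-diet term, 65 kept both, 75 lost the call and 0 reversed. The causes were not tested.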

Other observations

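A few genes used as markers of other cell types stood higher in elongating than in late round spermatids while most of their list mates were near 0; these were picked after their values were seen. Aard, a Sertoli marker, had a mean of 35.2 CPM in elongating, 3.60 in late round and 47.5 in late condensing spermatids. Cd3d, a T-cell receptor subunit, had 30.2 CPM against 11.3 in late round spermatids, with Cd3e at 0.0158 CPM in the same cells. C1qb, a complement subunit of macrophages, had 20.6 against 6.31 CPM, with C1qa at 1.14 and C1qc at 0.895 CPM. Cd3d and C1qb were both lower in elongating than in late condensing spermatids in all 4 libraries, with log2 ratios (CPM + 1) of -0.53 and -0.85. Egfl7, an endothelial marker, had 8.45 against 1.55 CPM.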
